A study of Mus musculus with 14 samples.

Results

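Gene expression was compared between 6 Ccnd2-expressing and 6 Ccnd2-silent lines of mouse Eµ-Myc lymphoma cells, across all genes other than Ccnd2. Members were chosen by their own Ccnd2 reading. The unit is CPM, a gene's counts scaled to 1e6 counts in its library, with spike-in and phage entries left out. A line was classed as expressing at 5 CPM or more and as silent under 1 CPM. These 12 lines are all the cultured samples among 14 libraries. The classes are not groups of the study, and they follow a measured value, so the Ccnd2 levels are a description and carry no test.

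E-mu-Myc cells are malignant B cells from mice whose Myc transgene is driven by the enhancer of the immunoglobulin heavy chain locus, a model of aggressive B cell lymphoma. Each line came from a different E-mu-MycTg/+ mouse and gave 1 library, so a line is 1 culture of 1 tumour and is the replicate here. All lines of both classes are labelled with genotype WT and no treatment, and were kept for 24 h in a medium with 0.37 mM L-asparagine. The Ccnd2-expressing lines are 136, 309, 504, 517, 524 and 801, and the Ccnd2-silent lines are 115, 505, 506, 549, 649 and 688. The other 2 libraries are lymphomas from lymph nodes of wild-type C57BL/6 mice engrafted with line 506 and given L-asparaginase (ASNase) or vehicle, and they enter no test. The labels name no repeat culture of any line, so p-values measure the spread between lines.

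D cyclins bind and activate the kinases Cdk4 and Cdk6, which phosphorylate the retinoblastoma protein and let a cell pass from G1 into S phase. In the B lineage cyclin D3 is needed for the expansion of progenitors, and cyclin D2 is induced by signals of the antigen receptor. Tiam1 and Dock10 are exchange factors that load the small GTPases Rac and Cdc42 with GTP, and they were named with Ccnd2 as marks of the expressing lines.

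Ccnd2, on the minus strand at chr6:127125162-127152193 (GRCm38), had 9.25 CPM in line 136, 90.3 in line 309, 169 in line 504, 48.0 in line 517, 65.6 in line 524 and 12.0 in line 801. In the silent lines it had 0.0319 CPM in line 115, 0.671 in line 505, 0.374 in line 506, 0.0379 in line 549, 0.153 in line 649 and 0.109 in line 688. Line 136 stood nearest to the threshold among the expressing lines, with 285 counts, and line 505 among the silent lines, with 20 counts. Line 115 and line 549 had 1 count each. Between 0.671 and 9.25 CPM no line was found.

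The promoter windows of 4 of the 5 genes that differed between the classes are printed here because they are the sequences upstream of the transcripts that moved with the class. They come from RefSeq on GRCm38.p6, each cut to the bases upstream of both the RefSeq and the GENCODE start, read 5′ to 3′ on the strand of the gene, with matches to a searched motif in capitals. Lrig3 is at chr10:125965969-125966167 (plus strand), Per3 at chr4:151044666-151044915 (minus strand), Jag1 at chr2:137116645-137116770 (minus strand) and Lmtk2 at chr5:144100111-144100360 (plus strand). For Prelid2 no sequence is printed.
Lrig3: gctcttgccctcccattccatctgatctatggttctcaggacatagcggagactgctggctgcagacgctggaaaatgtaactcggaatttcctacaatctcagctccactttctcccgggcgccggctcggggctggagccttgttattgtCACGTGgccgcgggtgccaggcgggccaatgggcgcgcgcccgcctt
Per3: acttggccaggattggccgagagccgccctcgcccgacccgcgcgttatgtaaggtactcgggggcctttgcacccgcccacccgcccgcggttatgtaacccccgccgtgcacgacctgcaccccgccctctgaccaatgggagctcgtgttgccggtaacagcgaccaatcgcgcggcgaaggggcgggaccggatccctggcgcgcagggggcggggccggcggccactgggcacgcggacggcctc
Jag1: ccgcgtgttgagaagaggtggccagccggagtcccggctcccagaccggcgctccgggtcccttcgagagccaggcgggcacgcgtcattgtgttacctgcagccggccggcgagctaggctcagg
Lmtk2: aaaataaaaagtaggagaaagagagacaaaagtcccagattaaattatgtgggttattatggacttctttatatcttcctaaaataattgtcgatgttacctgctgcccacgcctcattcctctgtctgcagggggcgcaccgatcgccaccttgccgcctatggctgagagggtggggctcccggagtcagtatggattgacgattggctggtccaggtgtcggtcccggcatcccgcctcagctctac

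The motifs searched on both strands were CACGTG, the E-box of MYC and CLOCK proteins, GTAAACA, a forkhead element, and TTCNNNGAA, the core of STAT sites. The only match in the 4 windows was 1 CACGTG in the Lrig3 window, a motif that 4.3% of 32851 RefSeq windows of 199 bases hold. CACGTG is held by 6.02% of windows of 250 bases, the length shown for Per3 and Lmtk2, and by 2.3% of windows of 126 bases, the length shown for Jag1. The forkhead element is in 1.69% to 3.17% and the STAT core in 3.63% to 7.02% of windows of these lengths. These are descriptions of the letters in the windows. CpG dinucleotides numbered 33 in the Per3 window, against a median of 6 over all windows of its length, 14 for Jag1 against 2, 15 for Lrig3 against 4 and 11 for Lmtk2 against 6. More CpG than in 96.0% of windows stood in the Per3 window, and more than in 93.3%, 82.4% and 64.4% in those of Jag1, Lrig3 and Lmtk2.

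Not all lines were independent by their antigen receptor transcripts. Ighv5-17 and Igkv9-120 were the most abundant heavy and kappa V segments in 3 lines, 506, 549 and 688, with Ighv5-17 at 88.2%, 65.0% and 87.0% of the Ighv counts, and all 3 are Ccnd2-silent. Over the 500 most variable genes the Spearman correlation between pairs of these lines was 0.807 to 0.893 (3 pairs), against 0.243 to 0.601 for the other pairs of silent lines (12 pairs), -0.03 to 0.510 within the expressing class (15 pairs) and -0.12 to 0.560 between classes (36 pairs). Line 649 shares Igkv9-120 as its top kappa segment with them, but has Ighv1-80 as its top heavy segment. Ighv13-2 and Igkv5-39 were second in both line 549 and line 136, and Ighv13-2 was the top segment of line 115, with 99.8% of its Ighv counts. The kappa segments of line 115 differed, with Igkv12-44 on top at 80.6% of its Igkv counts and Igkv5-43 second. The correlation of line 115 was 0.601 with line 549 and 0.511 with line 136. Lines 136 and 549 had Xist together with Y-linked genes, at 10.2 and 79.8 CPM in line 136 and at 502 and 1.25 CPM in line 549. Whether these cultures hold cells of more than 1 clone was not tested. The test treats the 3 lines as separate, so the main counts are also given without them. Totals ran from 24597230 to 31974303 counts in the expressing and from 26352085 to 32614751 in the silent lines, and 3 counts, the limit that a count of 0 allows, correspond to 0.0920 to 0.122 CPM.

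**Figure D1:**
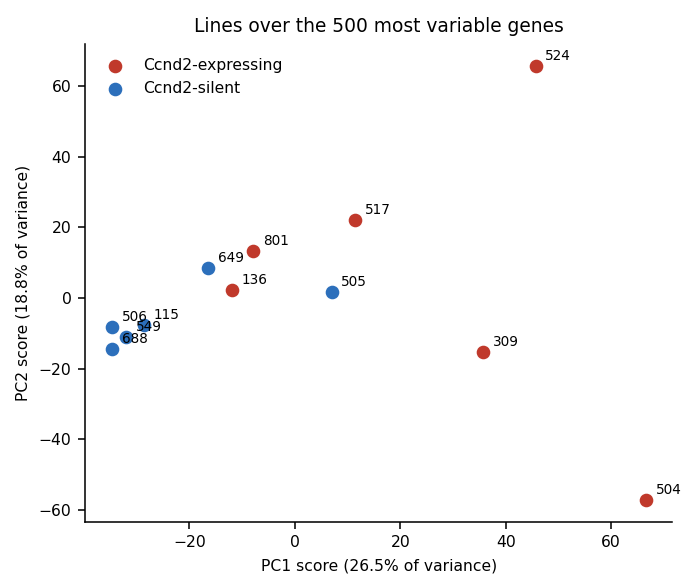
Scores of the 12 lines on the leading principal components of the 500 most variable genes (PC1, 26.5% of the variance, on the x axis; PC2, 18.8%, on the y axis), Ccnd2-expressing lines in red and Ccnd2-silent lines in blue, each point 1 library. Lines 506, 549 and 688 sit together, and lines 504 and 524 lie far from the rest.

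Both classes had the transcripts of B cells that the labels name. Pax5 ran from 437 to 618 CPM in expressing and 500 to 678 CPM in silent lines, and Cd79a from 342 to 870 and 287 to 511 CPM. Cd3e and Cd4 of T cells, C1qb of macrophages and S100a8 and S100a9 of neutrophils had 0 counts in every line. Other markers of such cells were read. Cd68 of macrophages had 1.65 to 3.59 CPM in expressing and 1.28 to 2.60 CPM in silent lines. Csf1r had 4.90 CPM in line 504, and Adgre1 1.27 and Trac 1.41 CPM in line 524. Hbb-bs of erythroid cells had 37.4 CPM in line 309 and 0.113 CPM or less in the silent lines. The summed level of 24 T and NK cell genes was 17.0 to 139 CPM in expressing and 14.0 to 42.1 CPM in silent lines, with 7 of them at 0 in every line. For 21 macrophage and neutrophil genes it was 4.72 to 66.4 and 4.17 to 15.8 CPM, with 6 at 0 in every line, and for 19 stromal, endothelial and erythroid genes 30.9 to 199 and 46.0 to 79.7 CPM, with 4 at 0.

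Few single genes separated the classes beyond the spread between lines. By edgeR's quasi-likelihood test, 5 of 12798 genes passed an adjusted p of 0.05 (Benjamini-Hochberg), which is 0.0391% of the genes. Of these, 4 were higher (0.0313%) and 1 was lower (0.00781%) in the Ccnd2-expressing lines. At an unadjusted p under 0.05 there were 1847 genes (14.4%), with 1183 higher (9.24%) and 664 lower (5.19%). Among the 11782 genes with a mean of at least 1 CPM in the higher class, 136 had values that did not overlap between the classes (1.15%), 81 of them higher (0.687%) and 55 lower (0.467%). DESeq2 on the same counts called 672 genes (4.58% of those it tested), 500 higher and 172 lower, among them all 5.

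The 5 genes are Lrig3, Prelid2, Per3 and Jag1, higher in the Ccnd2-expressing lines, and Lmtk2, lower in them. The filter keeps a gene near 0 in all silent lines only if all 6 expressing lines reach its floor. For Lrig3, Prelid2 and Jag1, presence in every expressing line and lack of overlap thus follow from the filter. They are a description. With no filter beyond 1 count the adjusted p by edgeR was 0.00217 for Lrig3, 0.0320 for Prelid2 and 0.0891 for Jag1. With line 506 kept as the only member of the 3 lines that share V segments, 1 gene was called (0.00753%), Lrig3. Without lines 506, 549 and 688 altogether, 1 gene was called (0.00731%), and it was none of the 5. That gene was Tbc1d32, which had 3.96, 4.22 and 6.93 CPM as the lowest, median and highest value in the expressing lines, against 0 counts in lines 115, 505 and 649. In lines 506, 549 and 688 it had 3.27, 1.82 and 4.48 CPM. The summed level of Y-linked genes was 5 CPM or more in 4 of the 6 expressing and 2 of the 6 silent lines. This reading, at or above 5 CPM against below, was fitted as the sex of the line. Line 801, with 0.532 CPM of Y-linked genes and 0.344 CPM of Xist, was coded with the lines below 5 CPM. Line 136, with 10.2 CPM of Xist as well, was coded with those above. With this covariate Lrig3 was still called (edgeR, adjusted p = 0.00157). The adjusted p was 0.0652 for Per3, 0.0652 for Prelid2, 0.107 for Jag1 and 0.107 for Lmtk2.

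Lrig3, which codes for a leucine-rich repeat protein of the cell membrane, was on in every expressing line and near 0 in every silent line. Its lowest, median and highest values were 2.01, 6.42 and 15.6 CPM in the expressing lines, against 0, 0.0157 and 0.0372 CPM in the silent lines. The classes did not overlap, and lines 115, 506 and 688 had no count. The means were 7.76 ± 4.80 CPM in the expressing and 0.0169 ± 0.0187 CPM in the silent lines (SD, n = 6 each). Summed over lines, 1430 counts stood against 3, a ratio of 468 (exact 95% binomial interval 160 to 2274, counting error only). The log2 fold change was 8.52 (SE 0.76, edgeR quasi-likelihood test, Benjamini-Hochberg adjusted p = 9.96e-04), a fitted value that depends on the prior count. It was called without each of the 12 lines in turn, and with 1 of the lines sharing V segments (adjusted p = 0.0488), but not without all 3 (log2 fold change 8.24, adjusted p = 0.122).

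Prelid2 codes for a protein with a PRELI domain, a fold known from lipid transfer in mitochondria. It had 0.969, 8.58 and 18.4 CPM as the lowest, median and highest value in the expressing lines. In the silent lines it had no count except for 3 counts in line 115 (0.0955 CPM). The classes did not overlap, with line 801 the lowest and line 309 the highest of the expressing lines. Summed counts were 1609 against 3, a ratio of 527 (exact 95% binomial interval 180 to 2559, counting error only). The log2 fold change was 8.79 (SE 1.10, edgeR, Benjamini-Hochberg adjusted p = 0.0174). With 1 of the lines that share V segments kept, it was 8.36 (edgeR, adjusted p = 0.426). Prelid2 was called in 7 of the 12 fits that left out 1 line, and its adjusted p was 0.0560 to 0.0849 without line 115, 506, 549, 649 or 688.

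Per3 is a member of the period family, transcriptional repressors of the circadian clock. Its lowest, median and highest values were 6.68, 10.5 and 14.4 CPM in the expressing lines, against 0.828, 2.12 and 2.79 CPM in the silent lines. The classes did not overlap, and the lowest expressing line, 504, stood above the highest silent line, 549. The means were 10.3 ± 2.69 and 1.93 ± 0.712 CPM (SD, n = 6 each), with a log2 fold change of 2.41 (SE 0.31, edgeR, Benjamini-Hochberg adjusted p = 0.0174). Per3 was called in 9 of the 12 fits that left out 1 line. With 1 of the lines that share V segments kept, the log2 fold change was 2.46 (edgeR, adjusted p = 0.317), so the size held and the call did not.

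Jag1 codes for Jagged1, a membrane-bound ligand of Notch receptors, and was a low transcript. It had 0.563, 2.65 and 10.9 CPM as the lowest, median and highest value in the expressing lines, against 0, 0.0164 and 0.0992 CPM in the silent lines. Line 517 was the highest, line 524 the lowest of the expressing lines, and the classes did not overlap. Summed counts were 723 against 7, a ratio of 102 (exact 95% binomial interval 49.0 to 253, counting error only). The log2 fold change was 6.46 (SE 0.96, edgeR, Benjamini-Hochberg adjusted p = 0.0469). It was called in 3 of the 12 fits that left out 1 line, and neither with no filter beyond 1 count (adjusted p = 0.0891) nor with a mean of at least 1 CPM (adjusted p = 0.0657).

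Lmtk2, a membrane-anchored kinase of the lemur family, was the gene called lower. It had 64.8, 81.6 and 115 CPM as the lowest, median and highest value in the expressing lines, against 138, 171 and 203 CPM in the silent lines. Line 136 was the highest expressing line and still below line 649, the lowest silent line. The means were 83.4 ± 18.1 and 169 ± 24.0 CPM (SD, n = 6 each), and the log2 fold change was -1.02 (SE 0.15, edgeR, Benjamini-Hochberg adjusted p = 0.0457). It was called in 1 of the 12 fits that left out 1 line, the fit without line 136.

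**Figure D2:**
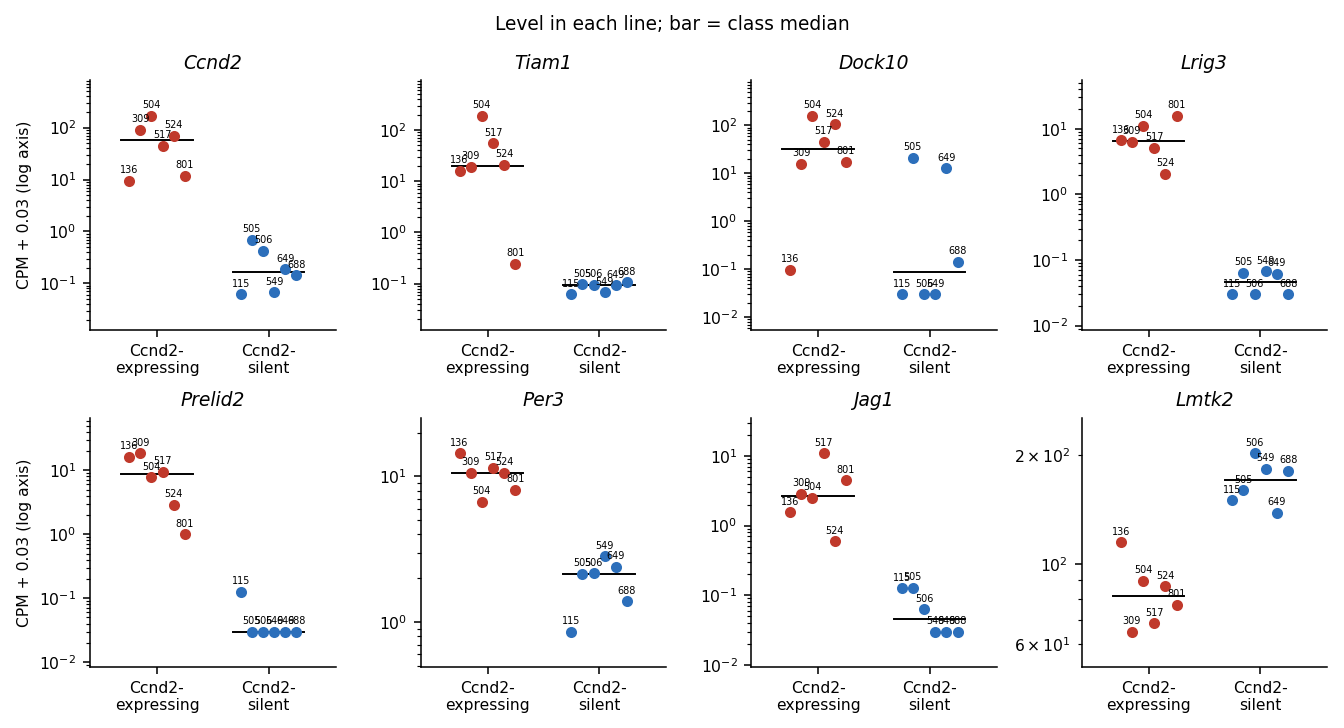
Level of 8 genes in each of the 12 lines, in CPM after TMM scaling plus a constant of 0.03 on a log axis, with Ccnd2-expressing lines on the left and Ccnd2-silent lines on the right of each panel, and bars at the class medians. Lrig3, Prelid2, Per3, Jag1 and Lmtk2 do not overlap between the classes, whereas Dock10 does, with line 136 among the silent and lines 505 and 649 among the expressing values.

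Line 136, the expressing line with the least Ccnd2, weighed most on the number of calls. Without it 22 genes were called (0.17%), 11 higher and 11 lower, and all 5 genes above were among them. Calls in the other fits that left out 1 line numbered 1 to 6, with 1 call each without line 506, 649 or 688 and 2 without line 549.

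Tiam1 and Dock10, named as marks of the expressing lines, behaved unlike each other. Tiam1, an exchange factor for Rac, had 0.212, 19.8 and 188 CPM as the lowest, median and highest value in the expressing lines, against 0.0318, 0.0641 and 0.0752 CPM in the silent lines. The classes did not overlap, although line 801 held only 7 counts. Tiam1 missed the filter on all 12 lines, and was tested with other filters and in the fit without line 801, where it was called. With no filter beyond 1 count, where edgeR called 6 genes (0.0247%), its log2 fold change was 9.69 (SE 1.34, edgeR, Benjamini-Hochberg adjusted p = 0.0320). Dock10, an exchange factor for Cdc42 and Rac, had 0.0660, 31.6 and 157 CPM in the expressing lines, against 0, 0.0564 and 20.6 CPM in the silent lines. The classes overlapped, since line 136 had 2 counts while lines 505 and 649 had 20.6 and 12.6 CPM, and the log2 fold change of 3.35 missed the threshold (SE 1.73, edgeR, adjusted p = 0.397). Both genes were proposed with the class, so their values describe it.

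Per length, Ccnd2 was the least abundant of the 3 D cyclins in 5 of the 6 expressing lines. Ccnd1, cyclin D1, had 7.67, 171 and 249 CPM as the lowest, median and highest value in the expressing lines, against 121, 175 and 209 CPM in the silent lines. Its log2 fold change was -0.13 (SE 0.53, edgeR, adjusted p = 0.937), and line 524 alone was low. Ccnd3, cyclin D3, had 59.6, 138 and 924 CPM in the expressing lines, against 88.2, 109 and 135 CPM in the silent lines (log2 fold change 1.29, SE 0.58, edgeR, adjusted p = 0.334). Line 504 held the 924 CPM, and lines 136 and 524 lay below every silent line.

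On the scale of CPM per kb of counted length, Ccnd2 made up 45.3% of the 3 D cyclins in line 524, 11.1% in line 309, 9.48% in line 504, 7.27% in line 517, 2.13% in line 136 and 1.77% in line 801. In the silent lines the share was between 0.00489% in line 115 and 0.130% in line 505. Line 524, with 2.00 CPM per kb of Ccnd1 and 7.28 of Ccnd2, was the only line in which Ccnd2 exceeded Ccnd1, and its sum of D cyclins was the lowest, at 16.1 CPM per kb. Line 504 had the highest sum, 188 CPM per kb, of which Ccnd3 gave 105.

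**Figure D3:**
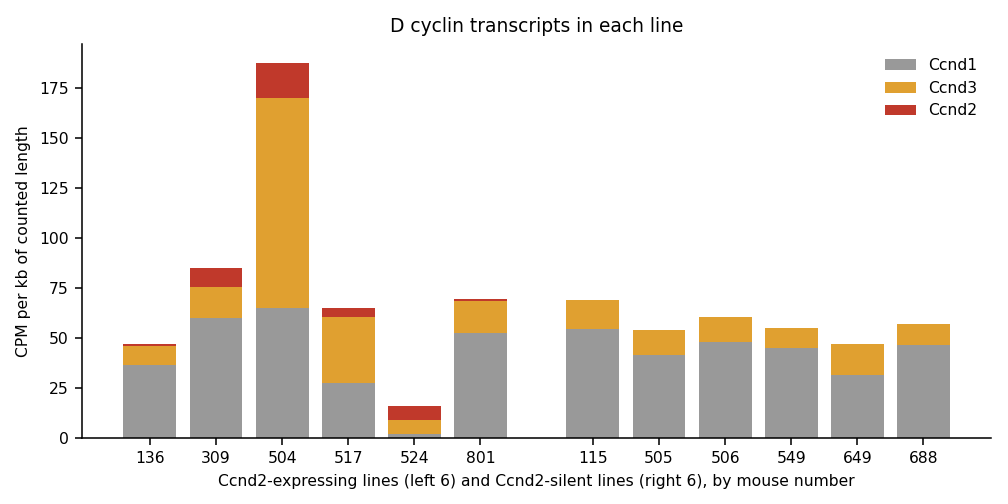
Ccnd1, Ccnd3 and Ccnd2 in each line, stacked, in CPM per kb of counted length, with the 6 Ccnd2-expressing lines on the left and the 6 Ccnd2-silent lines on the right. Ccnd2 is a small part of the sum except in line 524, where it reaches 45.3%, and line 504 has the highest sum through Ccnd3.

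The kinases and inhibitors of the D cyclin pathway were not called. Cdk4 was level across the classes (log2 fold change 0.07, SE 0.12, edgeR, adjusted p = 0.836), with 316, 447 and 518 CPM as the lowest, median and highest value in the expressing lines, against 352, 408 and 493 CPM in the silent lines. Cdk6 had 6.58, 116 and 200 CPM in the expressing lines, against 0.0376, 17.5 and 135 CPM in the silent lines (log2 fold change 1.29, edgeR, adjusted p = 0.704). The low values of Cdk6 fell in silent lines 506, 649 and 688 and in expressing line 524. In the list of D cyclins, Cdk4 and Cdk6, inhibitors and Rb proteins, 0 of 31 tested members were called, 6 had an unadjusted p under 0.05 on the higher side and 0 on the lower, and the median log2 fold change was 0.13, against 0.03 over all genes. The 6 were Ccnd3, Rbl1, E2f7 and the inhibitors Cdkn1a, Cdkn2c and Cdkn2d. Cdkn2d, the inhibitor p19, had 12.7, 18.0 and 39.5 CPM in the expressing lines, against 10.3, 11.5 and 18.1 CPM in the silent lines (log2 fold change 0.77, edgeR, adjusted p = 0.237). Without lines 506, 549 and 688, 1 of 32 tested members had an unadjusted p under 0.05, as did 4.22% of all genes in that fit.

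The genes of the tumour suppressor and Myc axis varied between single lines. Cdkn2a, the locus of p16 and p19Arf, had 0.571, 170 and 212 CPM as the lowest, median and highest value in the expressing lines, against 0, 1.73 and 95.7 CPM in the silent lines. The classes overlapped, since expressing lines 309 and 504 were low and silent line 115 was high (log2 fold change 2.81, SE 1.72, edgeR, adjusted p = 0.478). Trp53 was at 0.0704 CPM in expressing line 524 and between 67.4 and 312 CPM in the other 11 lines. Myc had 465, 1361 and 2718 CPM in the expressing lines, against 1329, 1876 and 2715 CPM in the silent lines (log2 fold change -0.47, edgeR, adjusted p = 0.552). Asns, the asparagine synthetase, had a log2 fold change of 0.44 (edgeR, adjusted p = 0.869), and its lowest value, 0.0313 CPM, was in silent line 649. Reads of Trp53 and its overlapping neighbour Wrap53 cannot be divided without the strand setting of the counting.

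No gene within 500 kb of Ccnd2 was called. Of 32 other genes in that window, 8 were tested, and 7 of them are given here. Parp11, a mono-ADP-ribosyltransferase, had 9.50, 12.3 and 20.4 CPM as the lowest, median and highest value in the expressing lines, against 6.09, 7.30 and 12.2 CPM in the silent lines (log2 fold change 0.76, SE 0.27, edgeR, adjusted p = 0.248). Log2 fold changes of 6 others were 0.11 for the respiratory chain subunit Ndufa9, 0.15 for Tigar, 0.17 for D6Wsu163e, 0.39 for Tpi-rs11, 1.77 for Cracr2a and 1.50 for Gm43634, with adjusted p from 0.526 to 0.804. Tigar, a regulator of glycolysis, lies beside Ccnd2 and had 16.7, 31.6 and 50.6 CPM in the expressing lines, against 23.5, 27.6 and 38.4 CPM in the silent lines.

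Whole chromosomes also stood apart in single lines or in several. On chromosome 6, which carries Ccnd2, the median log2 fold change of 618 tested genes was 0.17. The median deviation of these genes from their mean over the lines was 0.47 in expressing line 309 and between -0.09 and 0.10 in the other lines. On chromosome 19 the median was -0.29 over 438 genes, of which 83 had an unadjusted p under 0.05 on the lower side. Deviations there were 0.33 to 0.38 in silent lines 115, 506, 549 and 688, 0.28 in expressing line 136 and -0.68 in expressing line 517. On chromosome 13 the median was -0.14, with -0.72 in expressing line 801. Other deviations included 0.50 on chromosome 18 and -0.43 on chromosome 3 in line 504, 0.46 on chromosome 1 in line 649 and 0.44 on chromosome 12 in line 309. Dock8, Chuk and Ifit2 lie on chromosome 19, Thumpd3 on chromosome 6, and Simc1 and Slc38a9 on chromosome 13. Prelid2 lies on chromosome 18, Per2, Tram2 and 1700084C01Rik on chromosome 1, and Sec23a and Pik3cg on chromosome 12. The part of these shifts in the values of the genes was not tested.

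Below the threshold, the genes of smallest p on the higher side included regulators and channels of diverse kinds, and none of those named in this paragraph passed. Thumpd3, a part of a tRNA methyltransferase, was tight, with 51.3, 56.2 and 58.9 CPM in the expressing lines, against 33.8, 36.7 and 41.3 CPM in the silent lines (log2 fold change 0.56, SE 0.09, edgeR, adjusted p = 0.0545). Mex3b, an RNA-binding protein, had 2.18, 5.37 and 8.29 CPM against 0.955, 1.13 and 1.92 CPM (log2 fold change 2.11, SE 0.33, adjusted p = 0.0545). Hvcn1, the voltage-gated proton channel of B cells, had 89.3, 197 and 450 CPM against 40.6, 52.8 and 74.6 CPM (log2 fold change 1.97, SE 0.33, adjusted p = 0.0765). These 3 genes did not overlap between the classes. Nrgn, the calmodulin-binding protein neurogranin, Klf10, a zinc finger factor induced by TGF-beta, Sec23a, a coat protein of vesicles leaving the endoplasmic reticulum, and Per2, the partner of Per3 in the clock, did not overlap either. Their log2 fold changes were 3.82, 1.72, 0.84 and 2.25, and their adjusted p by edgeR 0.0797, 0.0865, 0.111 and 0.124.

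On the lower side, Klhl41, a kelch protein known from muscle, was nearly off in the expressing lines. It had 0, 0.137 and 0.515 CPM as the lowest, median and highest value there, against 1.05, 27.3 and 44.1 CPM in the silent lines, without overlap. Line 115 held the 1.05 CPM and the other silent lines 15.8 CPM or more. The log2 fold change was -6.87 (SE 1.10, edgeR, adjusted p = 0.0545). 1700084C01Rik had 0 counts in 4 expressing lines, 0.429 CPM in line 136 and 0.0908 CPM in line 801, against 1.26, 7.39 and 28.5 CPM as the lowest, median and highest value in the silent lines (adjusted p = 0.143). Tram2, a protein of the translocon known for collagen synthesis, had 10.1, 22.7 and 42.8 CPM in the expressing lines, against 66.2, 93.5 and 143 CPM in the silent lines (log2 fold change -1.91, SE 0.37, adjusted p = 0.134). Smaller differences without overlap were those of Gm13157 (-0.88), Simc1 (-0.63), Slc38a9, a lysosomal arginine sensor (-0.73), and Hagh, a glyoxalase (-0.61), and with overlap those of Tmem123 (-0.91) and 1110038B12Rik (-0.73). Their edgeR adjusted p ran from 0.0797 to 0.151.

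**Figure D4:**
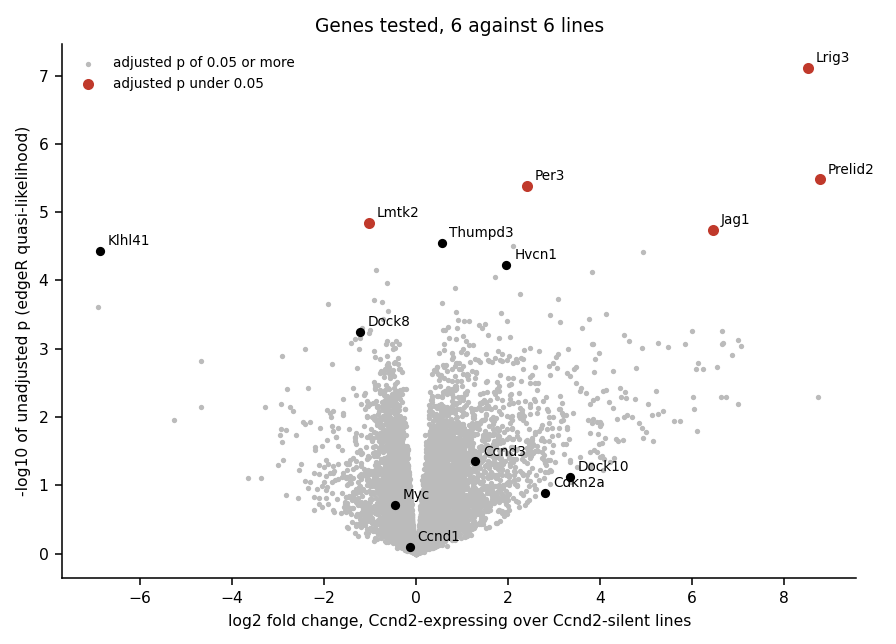
Log2 fold change of Ccnd2-expressing over Ccnd2-silent lines on the x axis and the -log10 of the unadjusted edgeR p on the y axis for 12798 genes, each point 1 gene, with the 5 called genes in red and some named genes in black. Lrig3, Prelid2 and Jag1 lie far to the right, Per3 and Lmtk2 closer to the centre, and Dock10, Ccnd3, Ccnd1, Cdkn2a and Myc low.

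Clock genes were looked at after the values of Per3 and Per2 were seen. Per2 had 5.96, 10.5 and 33.9 CPM in the expressing lines, against 1.64, 3.19 and 4.23 CPM in the silent lines. Ciart, a repressor of the clock, had a log2 fold change of 1.57 (edgeR, adjusted p = 0.218), and Bhlhe40, another repressor, 5.27 (adjusted p = 0.151). Bhlhe40 had 141 CPM in line 524, 2.24 to 8.35 CPM in the other expressing lines and 1.22 CPM or less in the silent lines. Of further clock genes, Nfil3, Cry2, Bhlhe41 and Nr1d2 had log2 fold changes of 1.29, 0.40, 0.11 and -0.40 (edgeR, adjusted p from 0.346 to 0.969). The activators were not higher together, with -0.65 for Clock (adjusted p = 0.218) and 0.48 for Arntl (adjusted p = 0.644). Per1, Cry1, Nr1d1 and Dbp had log2 fold changes of 0.41, -0.03, -0.22 and 0.59, with adjusted p from 0.317 to 0.992. Among these clock genes the test called Per3.

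Gene lists are described by counts and medians, to be read against all genes tested, of which 0.0391% were called and, at an unadjusted p under 0.05, 9.24% were higher and 5.19% lower, and the only member called in any of the 28 lists was Jag1. In the Notch pathway list 1 of 21 tested members was called, and 5 were at an unadjusted p under 0.05 on the higher side, Jag1, Maml3, Hes5, Dtx3l and Numb. The receptors Notch1 and Notch2 had log2 fold changes of 0.45 and -0.18 (edgeR, adjusted p = 0.798 and 0.797). Hes5, a target of Notch, had 0.462, 1.26 and 5.24 CPM in the expressing lines, against 0.164, 0.411 and 0.595 CPM in the silent lines (log2 fold change 2.10, SE 0.56, adjusted p = 0.168). Hes1, another target, had a log2 fold change of 0.89 (adjusted p = 0.553).

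Among the guanine nucleotide exchange factors, the lists to which Tiam1 and Dock10 belong, no tested member was called. Of 25 tested factors of the Dbl family, 1 was at an unadjusted p under 0.05 on the higher side, Plekhg2, and 2 on the lower side, Fgd6 and Farp2, with a median log2 fold change of 0.15. Fgd6, an exchange factor for Cdc42, had 18.2, 44.3 and 63.0 CPM in the expressing lines, against 72.0, 73.5 and 77.5 CPM in the silent lines, without overlap (log2 fold change -0.72, SE 0.23, edgeR, adjusted p = 0.218). Among 14 tested Dock and Elmo genes, Dock9, Dock11 and Elmo2 were at an unadjusted p under 0.05 on the higher and Dock8 on the lower side. Dock8, needed for long-lived B cell responses, had 60.6, 87.7 and 151 CPM in the expressing lines, against 119, 256 and 292 CPM in the silent lines (log2 fold change -1.21, SE 0.26, adjusted p = 0.151), with line 505 the low silent line.

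Lists of mature B cell and NF-kB genes had the most members at an unadjusted p under 0.05 on the higher side, and both counts were lower without line 524. In the mature B cell list 11 of 25 tested members (44%) were at that level and 0 on the lower side, with a median log2 fold change of 2.57, but 0 were called. In the NF-kB list it was 12 of 25 (48%) and 2, with a median of 0.85, and again 0 called. Without line 524 the counts were 4 higher and 2 lower of 25 in the mature B cell list (median 1.21), and 2 higher and 3 lower of 25 in the NF-kB list (median 0.25). With 1 line left out, the higher count ran from 4 to 16 (without line 136) in the mature B cell list. In the NF-kB list it ran from 2 to 14 (without line 136 or 801). Without lines 504, 524 and 649 together the counts were 11 higher and 1 lower of 24 mature B cell genes (median 1.16). For 25 NF-kB genes they were 2 higher and 3 lower (median 0.14). Without lines 506, 549 and 688 they were 3 higher and 0 lower of 28 in the mature B cell list (median 2.56). In the NF-kB list they were 4 higher and 1 lower of 28 (median 1.30). In that fit 4.22% of all genes were at that level, in either direction. With the sex of the line as a covariate the NF-kB list had 1 higher and 2 lower of 25. Cd74, the invariant chain of MHC class II, had 7.92, 188 and 4425 CPM in the expressing lines, against 19.9, 83.4 and 467 CPM in the silent lines (log2 fold change 2.86, SE 1.41, edgeR, adjusted p = 0.374). H2-DMb2 had 171 CPM in line 524 and 33.6 CPM in line 517, and 1.44 CPM or less in the other 10 lines. Tnfaip3, an inhibitor of NF-kB that NF-kB induces, had 0.881, 3.65 and 219 CPM in the expressing lines, against 0.496, 2.72 and 4.74 CPM in the silent lines (log2 fold change 3.93, adjusted p = 0.240). Chuk, the kinase IKK-alpha, had a negative value, with 67.8, 89.6 and 113 CPM against 107, 145 and 173 CPM (log2 fold change -0.66, SE 0.15, adjusted p = 0.151).

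Stage markers of B cells had no call. Of 15 tested progenitor genes, 3 were at an unadjusted p under 0.05 on the higher and 1 on the lower side. Igll1, the surrogate light chain lambda5, had 414 CPM in line 504, 61.3 in line 801 and none in line 524, with 0, 12.4 and 414 CPM as the lowest, median and highest value in the expressing lines, against 0.0955, 1.33 and 8.59 CPM in the silent lines (log2 fold change 4.84, SE 1.65, edgeR, adjusted p = 0.241). Rag1, a subunit of the V(D)J recombinase, had 0, 87.2 and 132 CPM in the expressing lines, against 3.44, 12.3 and 40.8 CPM in the silent lines (log2 fold change 2.13, adjusted p = 0.371). Line 524 held the 0, and the other 5 expressing lines lay above every silent line. Bcl6, a repressor of germinal centre B cells, had 3.30, 10.2 and 32.4 CPM in the expressing lines, against 0, 1.12 and 2.14 CPM in the silent lines, without overlap (log2 fold change 3.48, SE 0.88, adjusted p = 0.156). Prdm1 and Jchain of plasma cells stayed at or under 0.774 CPM in all lines. Sdc1, the plasma cell syndecan CD138, ran from 11.5 to 52.9 CPM in the expressing and from 9.09 to 90.5 CPM in the silent lines, and Irf4, a factor of activated B and plasma cells, from 140 to 1019 CPM and from 144 to 413 CPM.

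Receptor and kinase genes of B cell signalling had no call. Of 36 tested genes of B cell receptor signalling, 9 were at an unadjusted p under 0.05 on the higher and 0 on the lower side. The median was 0.42. Without line 524 it was 3 higher and 1 lower of 36, with a median of 0.22. Without lines 506, 549 and 688 it was 2 higher of 37, where 4.22% of all genes were at that level in either direction. Fyn, a Src family kinase, had 17.8, 46.6 and 118 CPM in the expressing lines, against 8.47, 15.0 and 22.9 CPM in the silent lines (log2 fold change 1.88, SE 0.46, edgeR, adjusted p = 0.156). Pik3cg, a catalytic subunit of PI3K, had 10.4, 67.3 and 125 CPM against 6.72, 12.8 and 25.8 CPM (log2 fold change 2.12, SE 0.53, adjusted p = 0.156). The classes overlapped in Fyn through line 136 and in Pik3cg through lines 136 and 801. Zap70, a kinase of T cell receptor signalling, did not overlap, with 0.817, 1.87 and 9.20 CPM against 0.0327, 0.0666 and 0.501 CPM (log2 fold change 4.14, SE 0.84, adjusted p = 0.150).

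In the list of the IL7 receptor, JAK and STAT5, 5 of 24 tested members were at an unadjusted p under 0.05 on the higher side. On the lower side there were 3, and the median was 0.66. Without lines 504, 524 and 649 together it was 3 higher and 4 lower of 24, with a median of 0.10. Il21r, the receptor of interleukin 21, had 0.198, 6.08 and 151 CPM in the expressing lines, against 0, 0.384 and 0.694 CPM in the silent lines, overlapping through line 136 (log2 fold change 6.65, SE 1.52, edgeR, adjusted p = 0.151). Il7r itself had a log2 fold change of -0.02 (adjusted p = 0.995). The interferon list had 6 of 17 tested members at an unadjusted p under 0.05 on the higher side and 0 on the lower. With 1 line left out, its higher count ran from 2 (without line 524) to 13 (without line 649). It was 6 of 16 without lines 504, 524 and 649 together, and 2 of 22 without lines 506, 549 and 688. Ifit2, an interferon-induced protein, had 2.16, 4.58 and 14.5 CPM in the expressing lines, against 0.350, 0.588 and 1.94 CPM in the silent lines, without overlap (log2 fold change 2.92, SE 0.59, adjusted p = 0.150).

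MYC target genes were the list with the lowest median among nuclear genes. Of 33 tested members, 30 had a negative log2 fold change, whereas 6904 of all 12798 genes had a positive one. On the lower side 6 were at an unadjusted p under 0.05 and 0 on the higher, and 0 were called. The median was -0.21. With total counts as the scaling, 26 of 33 were negative and 3 were lower at that level. Gnl3, the nucleolar protein nucleostemin, had 271, 328 and 384 CPM in the expressing lines, against 384, 440 and 475 CPM in the silent lines (log2 fold change -0.38, SE 0.10, edgeR, adjusted p = 0.156). Ncl, nucleolin, had 3040, 3187 and 4421 CPM against 3609, 4250 and 5578 CPM (log2 fold change -0.30, SE 0.14, adjusted p = 0.344). Without lines 506, 549 and 688, 1 of 33 was at an unadjusted p under 0.05, against 4.22% of all genes, and the median was -0.25. The count was 15 without line 136 and 2 without line 504 or line 524, and the median was -0.10 without lines 504, 524 and 649 together. The 13 mitochondrial mRNAs all had negative log2 fold changes with a median of -0.26 and no unadjusted p under 0.05. Their summed level overlapped, with 8194 to 19880 CPM in the expressing and 9992 to 16256 CPM in the silent lines. When line 801 was left out, 9 of the 13 were lower at that level, with a median of -0.49. In the list of replication and mitosis, 3 of 36 tested members were higher (8.33%) and 1 lower at an unadjusted p under 0.05, a share near that of all genes, with a median of -0.01 (0.03 with total counts as the scaling).

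Of the remaining lists, again with 0 calls, transcription factors of the B lineage had 10 higher and 1 lower of 35 tested members at an unadjusted p under 0.05, and PI3K, AKT and FOXO genes 8 higher and 2 lower of 35. Leaving out lines 506, 549 and 688 gave 1 higher of 35 transcription factors and 2 higher of 35 PI3K, AKT and FOXO genes, and leaving out line 549 alone gave 5 higher of 35 transcription factors. Egr1, an immediate early factor, had 0.462, 22.5 and 259 CPM in the expressing lines, against 0.856, 1.65 and 4.06 CPM in the silent lines (log2 fold change 4.91, SE 1.14, edgeR, adjusted p = 0.153), with line 524 the highest and line 136 the lowest. Migration and adhesion genes had 5 higher and 1 lower of 29, and 1 higher and 3 lower of 29 without line 524. Polycomb and DNA methylation genes had 5 and 1 of 31, and the p53 pathway 5 and 4 of 25. Immediate early and heat shock genes had 5 and 2 of 20, and the BCL2 family 3 and 2 of 13. Asparagine synthesis and ATF4 targets had 3 and 1 of 25, near the shares over all genes. Itgal, the alpha chain of the integrin LFA-1, had 191, 75.0 and 37.3 CPM in expressing lines 504, 309 and 524, and 1.27 CPM or less in the other 9 lines (log2 fold change 6.24, SE 1.60, edgeR, adjusted p = 0.156). Bcl2l1, the survival factor Bcl-xL, had 3.64, 12.3 and 15.3 CPM in the expressing lines, against 2.08, 2.93 and 5.89 CPM in the silent lines (log2 fold change 1.55, SE 0.42, adjusted p = 0.179). Other lists rest on few tested members. On the higher side the germinal centre and plasma cell list had 2 of 10 (20%) at that level and the T and NK cell list 2 of 4 (50%). The macrophage and neutrophil list had 1 of 4 (25%) and the Myc network 1 of 11 (9.09%), where all genes had 9.24%. None were at that level in the stromal list (3 tested) and the list of X inactivation and Y-linked genes (3 tested).

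**Figure D5:**
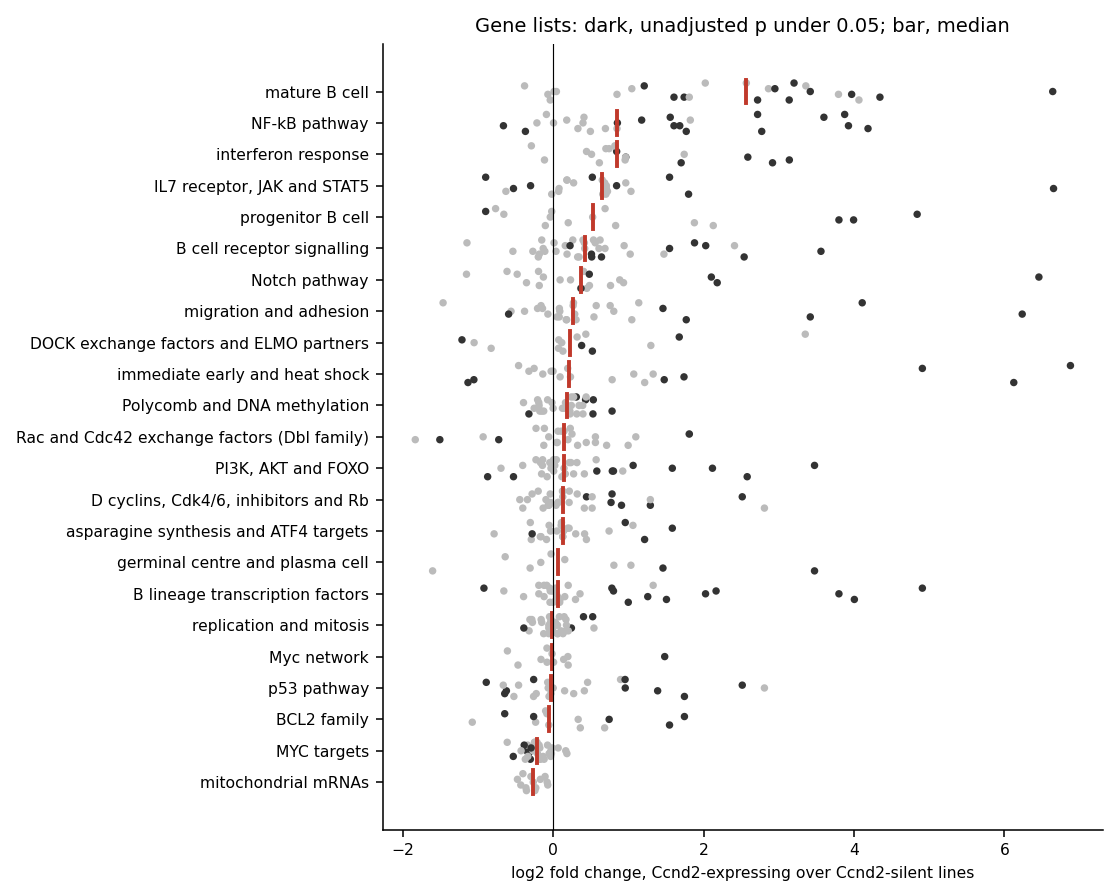
Log2 fold change of Ccnd2-expressing over Ccnd2-silent lines (x axis) for the tested members of gene lists with at least 10 tested members (rows), each point 1 gene, dark at an unadjusted p under 0.05, with a red bar at the list median. The mature B cell list has the highest median, 2.57, and the MYC targets and mitochondrial mRNAs the lowest, -0.21 and -0.26.

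The lymphomas that grew from silent line 506 were read as a description, with 1 library each and no test. Ccnd2 had 11.5 CPM (349 counts) in the ASNase lymphoma and 14.1 CPM (448 counts) in the vehicle lymphoma, against 0.413 CPM (12 counts) in line 506, with all 14 libraries scaled together. Per3 had 14.1, 10.3 and 2.24 CPM in the ASNase lymphoma, the vehicle lymphoma and line 506, and Jag1 had 3.93, 4.86 and 0.0344 CPM. Both lymphomas thus lay in the range of the expressing lines for Ccnd2, Per3 and Jag1. Lrig3 had 0.891 and 0.473 CPM and Prelid2 0.0990 and 0.158 CPM in the ASNase and vehicle lymphomas, below every expressing line, with 0 counts in line 506. Lmtk2 had 180, 167 and 213 CPM in the ASNase lymphoma, the vehicle lymphoma and line 506.

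Transcripts of other cells were also higher in both lymphomas than in line 506. The summed level of 21 macrophage and neutrophil genes was 858 CPM in the ASNase and 434 CPM in the vehicle lymphoma, against 16.6 CPM in line 506, with 20 of 21 higher in both lymphomas. For 19 stromal, endothelial and erythroid genes it was 2392 and 1246 CPM, against 83.8 CPM, with 17 higher in both, and for 24 T and NK cell genes 65.9 and 167 CPM, against 24.9 CPM, with 23 higher in both. In line 506 these lists had 13, 10 and 15 members at 0 counts, among them C1qb, Col1a1 and Kdr. Their part in the lymphoma values of Ccnd2, Per3 and Jag1 was not tested. In RNA of whole tumours, a change in the lymphoma cells and a change in the share of host cells cannot be told apart.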

How the data were processed

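The deposited table holds whole-number counts per gene for 14 libraries, not normalized. Per the labels' protocols, paired ends of stranded mRNA libraries were sequenced. The submitters' processing notes name STAR 2.4.0, Subread 1.5.0-p3 with featureCounts, and the build mm10 (GRCm38). Strand setting and handling of reads with several matches: not given in the sources used here. Overlapping, antisense and near-identical genes are therefore uncertain. Gene coordinates follow the deposited table. Each of the 14 columns was assigned to a sample through its title, and 0 columns remained. The 46959 gene entries were used, and 100 spike-in and phage entries, with 0 spike-in and 5 to 534 phage counts per line, were left out.

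Classes, gene lists and tests were chosen with earlier results of these data known. Ccnd2 stayed in the library sizes and out of the test. Genes were kept by filterByExpr on the classes, libraries scaled by TMM, and the 12 lines fitted with edgeR's quasi-likelihood functions glmQLFit and glmQLFTest on 10 residual degrees of freedom, with Benjamini-Hochberg adjustment over 12798 genes and a threshold of 0.05. CPM are TMM-scaled except in the class rule and in Xist and Y-linked levels, and the SE is the log2 fold change over the square root of F. Versions were R 4.3.3, DESeq2 1.42.0, limma 3.58.1, edgeR 4.0.16, and for plots matplotlib 3.10.9 in Python 3.11.15. Reads carry no molecular identifiers, so the exact 95% binomial intervals and the floor of 3 counts cover counting error only.

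The text names, in each direction, the called genes with a mean of at least 5 CPM in the higher class and then the smallest p to 10, without immunoglobulin and T cell receptor segments. It also draws on the 2 smallest p of each list, a fixed set (Ccnd1, Ccnd3, Cdk4, Cdk6, Tiam1, Dock10, Myc, Cdkn2a, Trp53 and Asns) and the tested genes within 500 kb of Ccnd2. Jag1, Tbc1d32, the clock genes and further list members were named after their values were seen. The 28 lists hold 706 genes, of which 705 are in the table. Alternatives were other scalings, filters and tools, a continuous Ccnd2 term, a sex term (Y-linked genes at 5 CPM or more), and fits with lines left out. A few genes and 1 list, withheld for evaluation, are left out of the text and figures.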

Additional observations from a re-analysis of the deposited data

Results flagged for a closer look

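Within the classes of 6 lines, 62 groups of values (31 genes) were screened for a line far from the others on a log scale, and 9 stood apart. Chance gives about 1 in 20 groups for genes picked without their values. These genes were not picked so, and the 9 cannot be set against that rate. Trp53, Asns, Cdk6, Ccnd1, Dock10 and Tiam1 belong to the fixed set, chosen with earlier results of these data known.

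In line 524 of the expressing class, Cdk6 had 6.58 CPM, Ccnd1 7.67 CPM and Trp53 0.0704 CPM, each far below the other 5 lines. Dock10 had 0.0660 CPM in line 136, the lowest of the expressing class. In line 801, Sec23a had 21.1 CPM and Tiam1 0.212 CPM, both the lowest of the expressing lines. In the silent class, Prelid2 stood out in line 115 with 0.0955 CPM because the other 5 lines had no count. Klhl41 had 1.05 CPM in line 115, the lowest of the silent class, and Asns had 0.0313 CPM in line 649.

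Ccnd2 was read in the ASNase lymphoma at 11.5 CPM and in the vehicle lymphoma at 14.1 CPM, libraries that no test used, above the 0.413 CPM of line 506 from which they derive. Markers of macrophages, stroma and T cells were higher in the same libraries, and their part was not tested.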

How the results depend on the processing

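The number of genes called changed with most settings. Against 5 in the fit reported, it was 5 with DESeq2 size factors and 6 each with no filter beyond 1 count and with a mean of at least 1 CPM. It was 10 with total counts, 9 with limma-voom, 672 with DESeq2, 214 with Ccnd2 log2 CPM as a continuous term, 15 without lines 504, 524 and 649, and 1 with the sex of the line as a covariate. It was 1 with a single line of those sharing an Ighv segment. Without lines 506, 549 and 688, a setting chosen after seeing the data, it was 1. With 1 line left out the number was 1 to 22. All 5 genes kept their direction in every setting that tested them, and Lrig3 was called in all but the fit without lines 506, 549 and 688. The cause of these differences was not tested.

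Some genes that were not called turned sign. Cdh5 was at -0.18 with limma-voom, Tigar at -5.7e-05 and Ccnd1 at 0.031 with the sex covariate, and Cdk4 at -0.074 without lines 504, 524 and 649. Xist was at 1.27 with the sex covariate and at 2.71 without lines 506, 549 and 688. With 1 line left out, Ndufa9 ran from -0.012 (without line 136) to 0.19, Tigar from -0.022 (without line 309) to 0.30, and Ccnd1 from -0.31 to 0.12 (without line 524). Medians of the lists kept their sign with DESeq2 size factors, and with total counts those of the Myc network (0.019), the p53 pathway (0.0071) and replication and mitosis (0.030) turned positive. No paired analysis was possible because the lines come from different mice and share no replicate numbers between the classes. Depth limits Lrig3, Prelid2, Jag1 and Tiam1, whose silent lines hold few or no counts.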
